A study of Mus musculus with 9 samples.

Results

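The genes for cytokine and chemokine ligands and receptors were followed in a genome-wide list of BAP1 binding sites from the mouse B cell precursor line Ba/F3. BAP1 is a nuclear deubiquitinase that removes ubiquitin from histone H2A. The members were the protein-coding genes of the GENCODE M1 annotation whose symbols begin with Ccl, Cxcl, Ccr, Cxcr or Il followed by a number, with 1 IL-3 receptor gene left out. This gave 138 gene records with 137 symbols out of 22367 protein-coding records, since the chemokine gene Ccl25 has 2 records at the same locus. By protein family 77 records code for ligands, 59 for receptors and receptor-like proteins, and 2 for others, the decoy protein gene Il18bp and the enzyme gene Il4i1. The rule for members uses their symbols and no measured value, and it was set with earlier results of these data known.

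The series comprises 9 samples, of which 2 immunoprecipitations stand behind the binding list. In wild type Ba/F3 cells BAP1 was precipitated with 52.8 µg of an anti-BAP1 antibody, and in Ba/F3 cells that stably express murine BAP1 with a triple FLAG tag it was precipitated with 5 µg of anti-FLAG M2. Both cell populations were cultured with IL-3 from conditioned medium, and the FLAG cells were kept under puromycin. The 3 H2AK119ub samples, from wild type cells and from Bap1 knockout lines, and the 4 input DNA samples were not analysed here. Each immunoprecipitation was sequenced once, and the 13164 peaks form 1 list for both, so the file used here gives no value per sample and no replicate error. All its peaks are 200 bp wide and carry no score, so a peak is either listed or not. A list of binding sites does not measure expression, and the depth of the libraries is unknown. Of 9 genes listed as B lineage markers, among which Ptprc is shared by all leukocytes, 1 had a peak at its transcription start site (TSS), Vpreb1, which codes for a part of the pre-B cell receptor. The 95% Wilson interval of this share, 1.99 to 43.5%, includes the 39.6% of all protein-coding genes.

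Cytokines are secreted proteins that carry signals between blood cells. Most interleukins act through receptors whose chains bind JAK kinases, which phosphorylate STAT transcription factors, while receptors of the IL-1 and IL-17 families use adaptor proteins that lead to NF-kappaB. Chemokines guide the migration of leukocytes through G protein-coupled receptors. In the B lineage, IL-7 supports the growth of precursors, CXCL12 holds them in the bone marrow through CXCR4, and CXCR5 leads mature B cells into follicles. Many of the ligand genes lie side by side in clusters and are silent until a cell is stimulated.

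A gene was called bound when the middle of at least 1 peak lay within 1 kb of any of its annotated TSSs, and such a peak is called gene-proximal. BAP1 peaks were rare at cytokine and chemokine genes. Of the members, 8 of 138 were bound, a share of 5.80% (95% Wilson interval 2.97 to 11.0), beside 39.6% of all protein-coding genes. The bound receptor genes were Cxcr4, Il1rap, Il17ra, Il10rb and Il4ra. The sole bound ligand locus was Ccl25, and among the 2 remaining members Il4i1 was bound. The intervals given cover counting error over genes only, and genes are not replicates.

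The sequences under the peaks of 4 bound receptors and of Ccl25 are shown beside promoters of 4 genes without a peak, as examples. The peaks are those nearest to the TSS and are cut so that at most 30 bases of annotated exon are shown. The promoters run from 170 bases before to 30 bases from the TSS. Ccl7 and Il13ra2 are the unbound ligand and receptor with the lowest promoter CpG ratio among those with a TATA box match, Il3 codes for the factor on which Ba/F3 cells depend, and Il7r codes for the IL-7 receptor. All are written along the strand of the gene, from build NCBIM37 (mm9), with matches to the motifs named further on in capitals.
Il17ra peak, chr6:120413094-120413244, plus strand: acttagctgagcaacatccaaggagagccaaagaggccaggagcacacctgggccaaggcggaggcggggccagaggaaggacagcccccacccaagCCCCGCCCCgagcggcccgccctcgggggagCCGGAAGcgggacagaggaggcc
Cxcr4 peak, chr1:130488841-130489022, minus strand: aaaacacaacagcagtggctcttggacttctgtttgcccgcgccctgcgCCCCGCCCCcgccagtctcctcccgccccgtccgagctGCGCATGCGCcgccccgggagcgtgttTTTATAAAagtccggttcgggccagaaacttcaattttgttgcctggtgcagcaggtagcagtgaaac
Il1rap peak, chr16:26581629-26581819, plus strand: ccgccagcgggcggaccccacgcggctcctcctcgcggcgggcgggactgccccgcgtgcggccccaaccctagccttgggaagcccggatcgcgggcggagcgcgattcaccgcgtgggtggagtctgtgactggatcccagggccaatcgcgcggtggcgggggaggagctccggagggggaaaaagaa
Il4ra peak, chr7:132695623-132695814, plus strand: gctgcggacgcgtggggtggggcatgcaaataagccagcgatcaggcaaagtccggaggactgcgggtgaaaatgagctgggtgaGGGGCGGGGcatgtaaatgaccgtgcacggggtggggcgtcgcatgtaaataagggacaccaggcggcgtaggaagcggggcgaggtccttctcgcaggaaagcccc
Ccl25 peak, chr8:4325071-4325209, plus strand: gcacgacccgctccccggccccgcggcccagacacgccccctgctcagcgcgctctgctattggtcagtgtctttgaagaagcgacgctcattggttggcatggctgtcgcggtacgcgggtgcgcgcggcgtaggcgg
Ccl7 promoter, chr11:81859044-81859243, plus strand: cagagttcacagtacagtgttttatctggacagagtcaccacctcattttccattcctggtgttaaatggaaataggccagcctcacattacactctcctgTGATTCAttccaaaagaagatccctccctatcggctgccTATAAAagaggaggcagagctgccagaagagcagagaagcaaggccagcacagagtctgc
Il3 promoter, chr11:54080750-54080949, minus strand: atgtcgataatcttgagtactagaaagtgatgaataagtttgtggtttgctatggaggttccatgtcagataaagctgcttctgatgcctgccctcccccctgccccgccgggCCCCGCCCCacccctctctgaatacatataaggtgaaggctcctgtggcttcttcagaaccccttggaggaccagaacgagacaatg
Il13ra2 promoter, chrX:143863706-143863905, minus strand: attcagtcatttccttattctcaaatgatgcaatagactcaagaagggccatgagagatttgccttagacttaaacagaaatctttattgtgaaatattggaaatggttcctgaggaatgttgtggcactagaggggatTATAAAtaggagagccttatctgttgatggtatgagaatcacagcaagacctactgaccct
Il7r promoter, chr15:9459602-9459801, minus strand: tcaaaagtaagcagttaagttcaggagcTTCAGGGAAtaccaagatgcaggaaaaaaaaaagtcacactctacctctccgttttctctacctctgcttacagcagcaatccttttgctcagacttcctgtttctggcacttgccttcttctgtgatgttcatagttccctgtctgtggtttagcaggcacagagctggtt

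In these stretches the dinucleotide CG occurred 25 times in the 191 bases at Il1rap, 19 times in the 139 bases at Ccl25, 16 times in the 192 bases at Il4ra, 15 times in the 182 bases at Cxcr4 and 9 times in the 151 bases at Il17ra. It occurred 5 times in the 200 bases at Il3, once at Ccl7 and once at Il7r, and at Il13ra2 it was not present. In the bound stretches the G and C content ranged from 61.0% at Cxcr4 to 73.8% at Il1rap. In the unbound promoters it ranged from 38.5% at Il13ra2 to 52.0% at Il3. The low CG counts of Ccl7 and Il13ra2 follow from their choice, so these stretches do not compare bound with unbound genes at large. The Cxcr4 peak differed from the other bound stretches by a TATA box match, TATAAA, 36 bases before the TSS, on the strand of the gene. The unbound Ccl7 and Il13ra2 promoters, chosen for such a match, held the same letters 30 and 31 bases before their TSSs.

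The 5 bound receptor genes code for proteins of different families. Cxcr4 codes for the receptor of CXCL12, and the middle of its peak lay 52 bp upstream of the TSS, at chr1:130488823-130489022. Il17ra codes for the chain shared by receptors of the IL-17 family, and its peak lay 22 bp upstream of the TSS, nearer than at any other member. Il17ra also had 2 peaks within the gene, at 3.30 and 7.69 kb from the TSS. Il1rap codes for the accessory chain used by the receptors for IL-1, IL-33 and IL-36, and it had 2 overlapping peaks at 62 and 233 bp upstream. Il4ra codes for the chain that binds IL-4 and also serves IL-13, with a peak 63 bp upstream. Il10rb codes for the second chain of the receptors for IL-10, IL-22 and the lambda interferons. Its peak lay 26 bp downstream of the TSS in the exon that holds the 5′ UTR, and for this reason its sequence is not shown. The gene-proximal peaks of the 5 receptor genes were not shared with any other gene.

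4 of these 5 proteins are chains shared by several receptors, a feature chosen after the values were seen. Other shared chains among the members were not bound, while the shared chain gene Csf2rb, outside the rule for members, was. The nearest peak lay 5.83 kb from Il2rg, the common gamma chain of the receptors for IL-2, IL-4, IL-7, IL-9, IL-15 and IL-21, and there it fell on the TSS of Med12. It lay 15.8 kb from Il2rb, the beta chain for IL-2 and IL-15, 3.41 kb from Il12rb1, shared by IL-12 and IL-23, and 186 kb from Il6st, the signal transducer of the IL-6 family.

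The bound ligand and the bound enzyme gene shared their peaks with neighbors. Ccl25, a chemokine of the thymus and small intestine and the ligand of CCR9, had peaks 49 and 338 bp upstream of its TSS by the first record, and 69 and 358 bp by the second. Both peaks also lay within 1 kb of the start of Elavl1, which is transcribed in the opposite direction and codes for an RNA-binding protein. Il4i1, an amino acid oxidase that IL-4 induces in B cells, had peaks 98 and 291 bp upstream, both also within 1 kb of TSSs of Nup62 and Atf5. A peak between such genes cannot be assigned to one of them. When peaks near a TSS of another gene were not counted, the share of bound ligands was 0% and that of receptors was still 8.47%. The share of all protein-coding genes was then 27.4%.

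**Figure D1:**
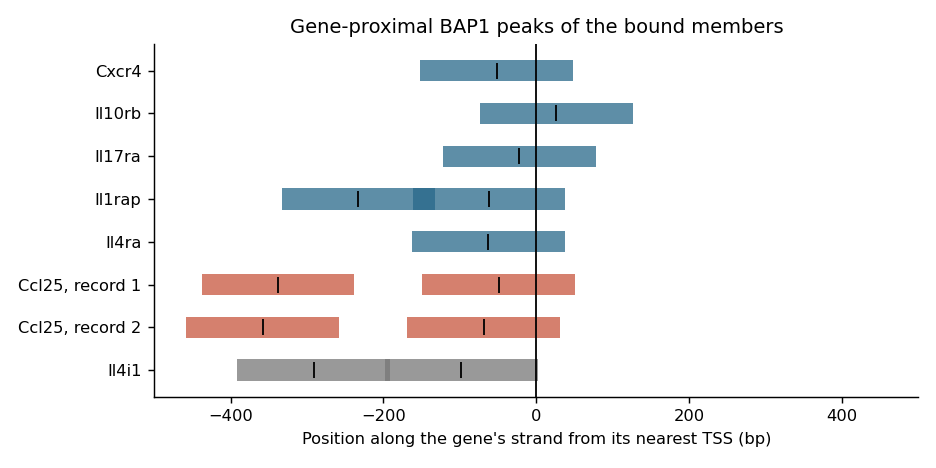
Positions of the gene-proximal BAP1 peaks of the bound genes. The x axis is the distance in bp along the gene's strand from the nearest TSS, each bar is a 200 bp peak with a tick at its middle, and colors separate receptors (blue), the 2 records of the ligand Ccl25 (red) and Il4i1 (gray). The middles of the peaks lie upstream of the TSS at all bound genes except Il10rb, where the middle is 26 bp downstream.

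Ligands and receptors were then set side by side. Ligand genes were bound in 2 of 77 records, a share of 2.60% (95% Wilson interval 0.715 to 8.98), or in 1 of 76 when the records of Ccl25 were counted once. Receptor genes were bound in 5 of 59, a share of 8.47% (3.67 to 18.4). The receptor share exceeded the ligand share by 5.88 percentage points, with a 95% interval from -2.11 to 15.9 that includes 0, so that a difference between the classes was not detectable under this definition of a bound gene. Under 2 alternatives the interval lay above 0: the difference was 8.47 points (1.72 to 18.4) when peaks near a TSS of another gene were not counted, and 14.4 points (lower limit 4.52) with a window of 5 kb. The first follows from the alternative itself, which leaves no bound ligand because both peaks of Ccl25 lie near Elavl1. It therefore gives no further evidence of a difference between the classes. Both shares lay below the 39.6% of all protein-coding genes.

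Within the ligands, 22 of 24 CC chemokine records had no gene-proximal peak, and none was bound among the 12 CXC chemokines, the 10 genes of the IL-1 family, the 7 of the IL-10 family, the 7 of the IL-6 and IL-12 families and the 6 of the IL-17 family. The 7 genes made up of the common gamma chain ligands and Il13 were also without one. Among these, the nearest peak lay 49.9 kb from Il4, 109 kb from Il7, the growth factor of B cell precursors, and 187 kb from Il2. For Il3 it lay 171 kb away, at the TSS of Fnip1. Within the receptors, 1 gene was bound in each of the CXC chemokine receptors (of 7), the IL-1 receptor family (of 9), the IL-17 receptors (of 5), the class II cytokine receptors (of 7) and the receptors with the common gamma chain together with the IL-13 receptors (of 10). None of the 11 CC chemokine receptors or of the 9 genes of the IL-6 and IL-12 receptor families was bound.

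There was a wide gap between the bound and the unbound genes. Every bound member had a peak within 98 bp of a TSS, and the next in order was Il12rb1 at 3.41 kb, so no nearest peak lay between 1 and 2 kb. Other receptor genes not far outside the window were Ccr10 at 4.07 kb, Il11ra1 at 4.71 kb and Ccr4 at 4.76 kb. A window of 5 kb gave 10 of 59 receptors (16.9%) and the same 2 ligand records, while the share of all protein-coding genes was 42.5%.

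**Figure D2:**
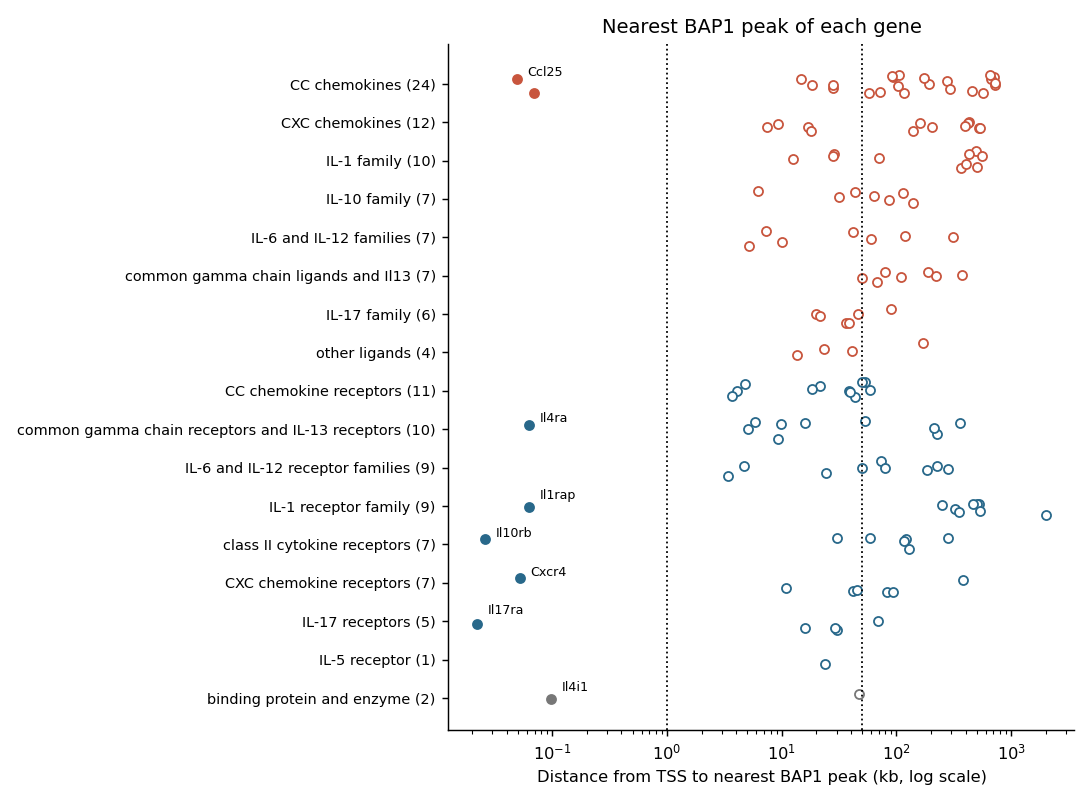
Distance from the nearest TSS of each of the 138 gene records to the nearest BAP1 peak, in kb on a log scale, by protein family (number of records in parentheses). Filled points have a gene-proximal peak and open points do not, red marks ligands, blue receptors and gray the others, and the dotted lines stand at 1 and 50 kb. The filled points lie below 0.1 kb, and the open points start at 3.41 kb.

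Beyond 1 kb, the nearest peak lay within 50 kb at 53 members (38.4%), beside 23.2% of all protein-coding genes, and farther away at 77 members (55.8%), beside 37.2%. These shares are over bound and unbound genes together, and fewer members were bound. Among unbound genes alone, the peak lay within 50 kb at 53 of 130 members, beside 5199 of 13517 protein-coding genes. It lay farther away at 77 of 130, beside 8318 of 13517, so the latter share was not higher in the unbound members. The median distance to the nearest peak was 65.3 kb for the members and 16.6 kb for all protein-coding genes. It was 91.1 kb for ligands and 49.9 kb for receptors. Among genes without a gene-proximal peak the order changed: the median was 72.3 kb for the members and 83.0 kb for all protein-coding genes, with 92.7 kb for unbound ligands and 52.9 kb for unbound receptors. Unbound ligands thus lay farther from peaks by their median than unbound genes at large, and unbound receptors nearer.

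For 96 of 130 unbound members (73.8%) the nearest peak was gene-proximal to another annotated gene, beside 68.4% of all unbound protein-coding genes. Examples are Il23a, a subunit of IL-23, at 5.15 kb from a peak at Pan2, Il9r at 5.09 kb from a peak at Snrnp25, and the chemokine gene Cxcl16 at 7.49 kb from a peak at Med11. Peaks more than 1 kb from every annotated TSS, called gene-distal, were found within 50 kb of 25 members (18.1%), beside 19.8% of all protein-coding genes. Of ligands 10 (13.0%) and of receptors 14 (23.7%) had such a peak.

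For 9 unbound members the nearest peak lay within 50 kb, was gene-distal, and had the member itself as its closest gene. The same count was not made over all protein-coding genes, so it cannot be told whether this number is unusual. Of the 9 members, 8 were receptors and 1 was a ligand, Il10. It codes for an inhibitory cytokine and had a peak 6.17 kb downstream of its TSS. Among the receptors were 3 of the common gamma chain group. Il2ra, the alpha chain that raises the affinity for IL-2, had an intronic peak at 9.75 kb. Il21r had a peak 9.34 kb upstream, and this peak also lay 29.5 kb downstream of the TSS of the neighbor Il4ra. Il2rb had its nearest peak 15.8 kb upstream. Among the others were the chemokine receptor genes Ccr2, Ccr4 and Cxcr5, and Il12rb1, which had a second gene-distal peak at 4.42 kb.

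A peak inside the transcribed region was seen at 7 members (5.07%), beside 22.6% of all protein-coding genes, and all 7 were receptors, among them Il2ra, Il17ra, Il10rb, Cxcr5 and Ccr9. Not all of these peaks are gene-distal. The annotated span of Ccr9 covers the start of Lztfl1, and the peaks inside Ccr9 lay at that start. No ligand gene held a peak within its transcribed region.

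The study's text names 5 members for their expression or surface staining in B cells, and 0 of these 5 were bound in Ba/F3, beside the 39.6% of all protein-coding genes. The paper lists Cxcr5, Cxcr7, Il2rg and Il9r as upregulated in mouse B cell precursors without BAP1. For Il7r it reports an unchanged transcript and less surface protein on large pre-B cells. The overrepresentation of binding sites in the paper was at downregulated genes, and distal sites were counted there too. The nearest peak lay 358 kb from Il7r, 379 kb from Cxcr7, which codes for a scavenging receptor of CXCL12, 10.9 kb from Cxcr5, in its intron, 5.83 kb from Il2rg and 5.09 kb from Il9r. In the pair of CXCL12 and its receptor, the receptor gene Cxcr4 was bound, while the nearest peak of the ligand gene Cxcl12 lay 140 kb upstream.

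Cytokine genes also differed from other genes in their promoters. The CpG ratio is the number of CG dinucleotides observed over the number expected from the base composition. It was computed within 500 bp to each side of the TSS of the gene's longest transcript. Peaks were measured from the nearest of all annotated TSSs, so a ratio and a peak can belong to different starts. A promoter with a ratio of at least 0.6 was called CpG-rich. The median ratio was 0.20 for ligands, 0.25 for receptors and 0.56 for all protein-coding genes. By this limit 16 of 138 members (11.6%) had a CpG-rich promoter, beside 46.3% of all protein-coding genes.

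The share of bound genes was higher at higher CpG ratios, among the members as in the whole annotation. Of the CpG-rich members 7 of 16 were bound (43.8%, 95% Wilson interval 23.1 to 66.8), beside 70.2% of all CpG-rich genes. Of the CpG-poor members 1 of 122 was bound (0.820%, 0.145 to 4.50), beside 13.1% of all CpG-poor genes, and this member was Il10rb, with a ratio of 0.59. Below a ratio of 0.4, 0 of 106 members had a peak. In all protein-coding genes the share was 3.46% below 0.2 and 10.2% from 0.2 to 0.4. In the 3 higher steps 1 of 16 members (95% Wilson interval 1.11 to 28.3) was bound beside 31.8% of all genes, 3 of 8 (13.7 to 69.4) beside 64.9%, and 4 of 8 (21.5 to 78.5) beside 76.6%. The intervals of the 2 highest steps and of the lowest, 0 of 57 (0 to 6.31), include the shares of all genes. The bound records of the highest step were both records of the Ccl25 locus, Il4i1 and Il17ra. The peaks of Ccl25 and Il4i1 also lay near TSSs of other genes, and these records count among the 7 bound CpG-rich members too.

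**Figure D3:**
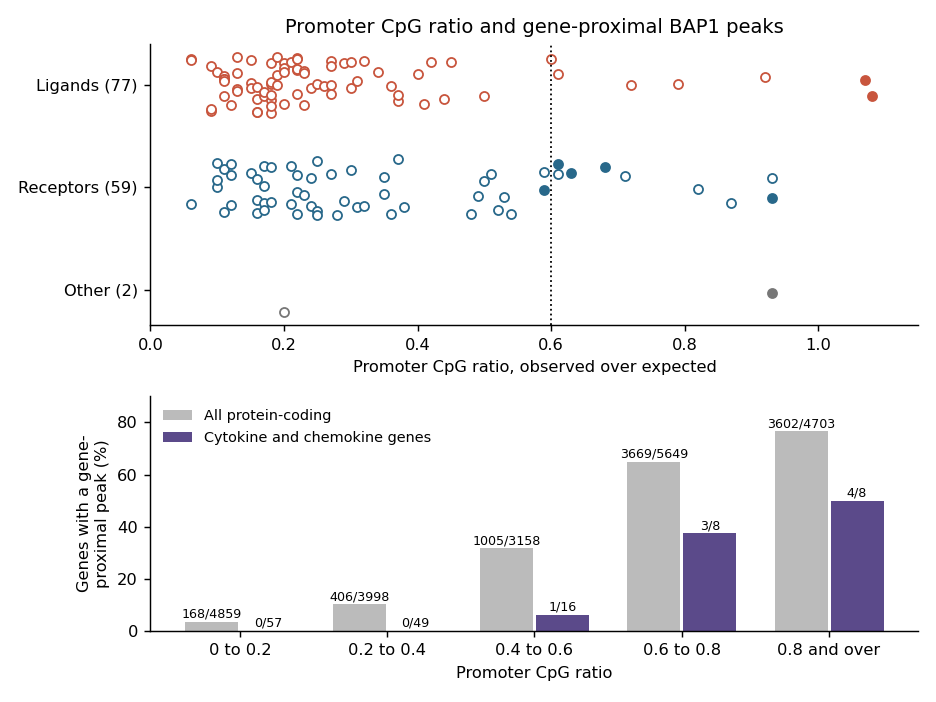
Promoter CpG ratio and BAP1 binding. In the upper panel each point is a gene record at its CpG ratio on the x axis, filled where a gene-proximal peak was listed, with ligands in red, receptors in blue and the others in gray, and a dotted line at 0.6; in the lower panel the bars give the percent of genes with a gene-proximal peak in 5 steps of the ratio for all protein-coding genes (gray) and for the cytokine and chemokine genes (purple), with bound and total numbers above. The filled points lie at 0.59 and above.

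Some members were CpG-rich and yet had no peak near their TSS. Among the ligands these were Il17d, with a ratio of 0.92 and the nearest peak at 46.3 kb, Cxcl12 with 0.79, Cxcl14 with 0.72 and a distance of 161 kb, and Cxcl16 with 0.61. Ccl27b, just below the limit, was also unbound, and its window consists of sequence that occurs more than once in the genome, where reads cannot be placed uniquely. Among the receptors they were Ccr9, with a ratio of 0.93, Il17rd with 0.87 and a distance of 68.4 kb, Il6ra, the IL-6 binding chain, with 0.82 and 50.0 kb, Il28ra, a chain for lambda interferons, with 0.71 and 116 kb, and Il17rb, a receptor for IL-25, with 0.61 and 30.1 kb. In the IL-17 receptor family 3 of 5 genes were thus CpG-rich, and Il17ra alone was bound.

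Motifs were searched in the 300 bases from 250 before to 50 after the TSS of the longest transcript, on both strands. The TATA box match TATAAA was found in 28.6% of ligand promoters and in 11.9% of receptor promoters, beside 13.3% of all protein-coding promoters and 5.72% of those with a gene-proximal peak. Placed on the strand of the gene between 40 and 20 bases before the TSS, it was found in 16 of 77 ligands (20.8%), 3 of 59 receptors (5.08%), 2.23% of all promoters and 0.565% of the bound ones. Il1b, Il2, Il10, Il13, Il17a and Ccl5 were among the ligands with it. Of the 3 receptors with it, Ccr1l1, Cxcr4 and Il13ra2, Cxcr4 was bound.

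Matches for factors of the immune response had higher shares in the members' promoters than in promoters at large. The NF-kappaB letters GGANTTTCC occurred in 10.1% of members and 1.29% of all promoters, the AP-1 letters TGANTCA in 13.0% and 6.82%, and the STAT letters TTCNNNGAA in 11.6% and 7.90%. The STAT letters occurred in 14.3% of ligand promoters and in 8.47% of receptor promoters, the latter near the share of all promoters. No test was made of these shares. Other motifs had lower shares in the members' promoters. The ETS letters CCGGAAG occurred in 7.25% of members, 11.0% of all promoters and 23.0% of bound promoters, and the SP and KLF letters GGGGCGGGG in 8.70%, 15.2% and 24.4%. In the same order, the shares were 1.45%, 7.90% and 11.0% for the E-box CACGTG, 0.725%, 2.08% and 4.40% for the NRF1 letters GCGCATGCG, 0.725%, 2.34% and 3.92% for the CREB and ATF letters TGACGTCA, and 0%, 1.92% and 4.09% for the YY1 letters AAGATGGCG. All 6 of these motifs contain CG, and the part of the CpG content in their shares was not tested.

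In the peaks printed above, the Il17ra sequence held an SP and KLF match 24 bases before and an ETS match 7 bases after the TSS. The Cxcr4 sequence held NRF1 letters at 65 bases before the TSS, which read on both strands with a shift of 1 base, and an SP and KLF match 103 bases before the TSS. The Il4ra sequence held an SP and KLF match 77 bases before it. The printed sequences of Il1rap and Ccl25 held none of the 10 motifs. The unbound Il3 promoter held an SP and KLF match 57 bases before its TSS, the unbound Il7r promoter STAT letters 142 bases before, and the Ccl7 promoter AP-1 letters 69 bases before. A match is a string of letters and not a measured binding site.

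Many members lie in clusters. Members on 1 chromosome whose gene starts follow each other within 200 kb formed 26 runs with 81 members, and 57 members stood outside them. A run had to hold more than 1 symbol, so both records of Ccl25, at the same locus, were counted outside. In the runs 1 member was bound, Il4ra beside Il21r, a share of 1.23% (95% Wilson interval 0.218 to 6.67). Outside the runs 7 of 57 were bound (12.3%, 6.08 to 23.2), both records of Ccl25 among them. The share of CpG-rich promoters was 4.94% in the runs and 21.1% outside.

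The run of the 6 IL-1 receptor genes from Il1r2 to Il18rap on chromosome 1 was 467 kb long, and the peak nearest to any of its members lay 249 kb away. The run of 6 CC chemokine genes from Ccl2 to Ccl1 on chromosome 11 was 270 kb long, with the nearest peak at 459 kb, and the 6 genes of the IL-1 family from Il1f8 to Il1rn on chromosome 2 had theirs at 367 kb. For the 5 CXC chemokine genes from Cxcl5 to Cxcl2 on chromosome 5 it lay at 393 kb. None of these 4 runs held a peak.

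Over all 26 runs, 8 of 25 other protein-coding genes were bound, beside 39.6% of all protein-coding genes. A few runs held such bound genes. In the run of Il4, Il13 and Il5, cytokines of type 2 helper cells, both of the 2 other protein-coding genes were bound while the 3 cytokine genes were not. In the run of Il11ra1, Ccl27a and Ccl21b on chromosome 4, 3 of 6 other protein-coding genes were bound. Here, and at Ccl19, Ccl21a, Ccl21c, Ccl27b and Il11ra2, the windows around the TSSs were not all unique. At 8 members more than 50% of the words of 50 bases within 1 kb of the TSS occurred elsewhere in the genome, and without these members the share was 6.15%.

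The genes that act around the ligands and receptors were counted in lists. Of 27 other cytokine ligand genes 6 were bound (22.2%, 95% Wilson interval 10.6 to 40.8), and of 35 other cytokine and chemokine receptor genes 10 (28.6%, 16.3 to 45.1), beside the 39.6% of all protein-coding genes. The bound ligands were Epo, Flt3l, Lif, Osm, Tgfb1 and Tnf. All but Tgfb1, with a ratio of 0.70, had CpG-poor promoters by the limit of 0.6. The ratios were 0.59 for Epo, 0.42 for Flt3l, 0.18 for Lif, 0.39 for Osm and 0.30 for Tnf. They hold for the TSS of the longest transcript, which need not be the TSS nearest to the peak. The peaks of Lif, Osm and Tnf lay 68 bp upstream, 302 bp downstream and 12 bp upstream of their TSSs. Csf2, next to Il3 in the genome, had its nearest peak at 188 kb.

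Among the other receptors all 4 interferon receptor genes listed were bound. The peaks lay 175 bp upstream of Ifnar1, 37 bp upstream of Ifnar2, 31 bp upstream of Ifngr1 and 56 bp upstream of Ifngr2. Ifnar1, Ifnar2 and Ifngr2 are neighbors of Il10rb and belong with it to the class II cytokine receptors, in which no member by symbol other than Il10rb was bound. The nearest peak of both Il20ra and Il22ra2, at 121 and 30.1 kb, was the one at Ifngr1. Csf2rb, the signaling chain shared by the receptors for IL-3, IL-5 and GM-CSF, had a CpG ratio of 0.19 at the TSS of its longest transcript. It was bound, with a peak 10 bp upstream of its nearest annotated TSS. Its paralog Csf2rb2, which serves IL-3 in the mouse, was not, with a distance of 20.4 kb. Il5ra, the IL-5 binding chain, lay 24.0 kb from its nearest peak, at Trnt1. The other bound receptors were Crlf2, Ltbr, Tgfbr1, Tnfrsf1a and Tnfrsf1b.

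Inside the cell, 3 of 4 JAK kinase genes were bound (Jak1, Jak2 and Jak3, and not Tyk2, whose nearest peak lay 3.93 kb away). Of 7 STAT genes 5 were bound, the exceptions being Stat4 at 106 kb and Stat5b at 9.68 kb. Stat5a, with a CpG ratio of 0.21 at the TSS of its longest transcript, had a peak 57 bp downstream of its nearest annotated TSS. Of the 8 genes for SOCS proteins and Cish, the feedback inhibitors of JAK and STAT signaling, 8 were bound. Of 13 genes for adaptors and regulators of IL-1 and Toll receptor signaling 9 were bound, among them Myd88, Irak1, Irak4 and Traf6. The shares stand beside 39.6% of all protein-coding genes, and the 95% Wilson intervals of the JAK (30.1 to 95.4) and STAT (35.9 to 91.8) lists include that share, while those of the SOCS list (67.6 to 100) and the adaptors (42.4 to 87.3) lie above it. Of the 32 genes in these 4 lists 25 were bound and 23 had CpG-rich promoters, a class in which 70.2% of all genes were bound. No test was made of the differences between lists.

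**Figure D4:**
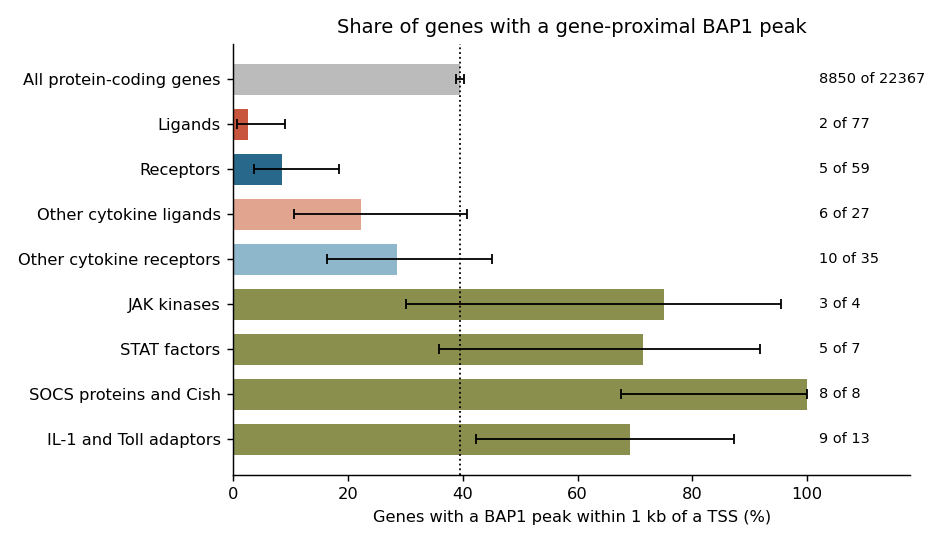
Share of genes with a gene-proximal BAP1 peak, in percent on the x axis, for all protein-coding genes, the ligands and receptors chosen by symbol, and lists of related genes, with 95% Wilson intervals as error bars, bound and total numbers at the right and a dotted line at 39.6%. The bars of the ligands (2.60%) and receptors (8.47%) lie below that line with their whole intervals, and those of the other ligands and receptors cross it with theirs.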

How the data were processed

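BAP1 was mapped by ChIP-Seq in Ba/F3 cells. Per the submitters' processing notes, the authors aligned reads with Bowtie 1.0.0 to mm9 and called peaks with MACS 1.4.2, against input DNA from the same cells. The file deposited by the authors gives 2 positions in bp per peak, its start and its end, and no other measurement. The threshold of the caller and the rule that joined both samples are not given in the sources used here, and both set how many genes appear bound. Members and TSSs were taken from GENCODE M1 (NCBIM37), without the 13 mitochondrial coding genes. The members, families and gene lists were chosen with earlier results of these data known. Named are all bound members, those the study's text names, Il3, Cxcl12 and Cxcr4, and the 5 unbound ligands and receptors with the highest CpG ratio. Results for some genes are not reported here. Genes outside this rule are given as examples chosen after their values were seen. Shares carry 95% Wilson intervals, that of the difference being Newcombe's, and no test was made, since there is 1 list with no replicates. The functions were tested on simulated data and against bedtools 2.31.1. Python 3.11.15, numpy 2.4.6, pandas 2.3.3 and matplotlib 3.10.9 were used. Windows, TSS sets, shared peaks, repeated sequence, CpG limits and distance limits were varied.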

Additional observations from a re-analysis of the deposited data

How the results depend on the processing

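The share of bound members was 5.80% with windows of 500 bp and 2 kb, with distances taken to the peak's edge, with 1 TSS per gene and with protein-coding transcripts alone, and it ranged from 3.62% to 9.42% over all alternatives. The share of bound ligands was 0%, beside 27.4% of all protein-coding genes, when peaks near a TSS of another gene were not counted. This follows from the alternative itself, since both peaks of Ccl25 lie near Elavl1. The share of members with their nearest peak beyond 1 kb was 18.8% with an outer limit of 20 kb and 53.6% with 100 kb, in place of 38.4% with 50 kb. The receptor share stayed above the ligand share under all alternatives, by 5.88 to 14.4 percentage points. The interval of the difference excluded 0 under 2 of them, the 5 kb window and the uncounted shared peaks. The latter leaves no bound ligand by its own rule. With the records of Ccl25 counted once, an alternative chosen after seeing the data, the receptor share was 7.16 points higher. The 10 peaks at members came to 7 when those within 500 bp were merged. The bound share of CpG-rich members was 34.8% with a limit of 0.5 and 44.4% with 0.75. A stricter peak threshold was not tried, since the file used here holds no score. No paired analysis was possible because the result comes from no test and both samples share 1 list. With unknown depth, a gene without a peak may be bound below the caller's threshold.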
